A study of Mus musculus with 12 samples.

Results

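CD8+ T cells from PyMT breast tumors that carried both Pdcd1 and Tcf7 transcripts were singled out from a single-cell matrix of CD4/CD8-selected cells. The rule took cells with at least 1 UMI each of Cd8a, Pdcd1, and Tcf7 and none of Cd4, Havcr2, or Mki67, and it found 1351 cells among 19528 cells kept, or 6.92% (exact 95% interval 6.57 to 7.28). A UMI is a barcode that marks 1 captured transcript. These cells are called Pdcd1+Tcf7+ cells, and they made up 9.34% (8.87 to 9.82) of the 14466 cells with Cd8a. The study selected cells with CD4/CD8 beads from digested tumors of 6 samples, 3 labelled wild-type and 3 labelled PAR2 G37I mutant. The cells were frozen, thawed, and sequenced on the 10x Genomics platform. All mice carried the MMTV-PyMT transgene, in which a mammary tumor virus promoter drives the polyoma middle T oncogene in mammary epithelium, and PAR2 G37I is a knock-in form of the receptor gene F2rl1 that resists signaling by coagulation factor Xa. The mice received no further treatment, and the model uses female mice, whose age at collection the labels do not give. The study asked whether CD8+ T cells differ between the genotypes, but the barcodes of the pooled matrix name no sample, so the genotypes were not compared and the matrix was treated as 1 sample without p-values. Intervals cover counting error only.

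CD8+ T cells that meet antigen for long periods, as in tumors, enter a state called exhaustion, in which the inhibitory receptor PD-1 (Pdcd1) stays on the surface. A progenitor form of these cells keeps the transcription factor TCF1 (Tcf7), renews itself, and gives rise to terminally exhausted cells, which lose TCF1 and gain TIM-3 (Havcr2), further inhibitory receptors, and granzymes. Progenitor cells are known as the population that expands under checkpoint blockade, and the surface receptor Ly108 (Slamf6) is commonly used to find them.

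Reference populations, each with at least 1 Cd8a UMI, were set beside them. Pdcd1+Havcr2+ cells had Pdcd1 and Havcr2 but no Tcf7 and numbered 494. Tcf7+Pdcd1- cells had Tcf7 and none of Pdcd1, Cd4, Havcr2, or Mki67 and numbered 2360. The 3 genes stand at chromosome 1:94038305-94052553 (Pdcd1, minus strand), chromosome 11:52252371-52283014 (Tcf7, minus strand), and chromosome 11:46454935-46481255 (Havcr2, plus strand) of GRCm38. Median UMIs per cell were 5560 in Pdcd1+Tcf7+ cells, 5394 in Pdcd1+Havcr2+ cells, and 5659.5 in Tcf7+Pdcd1- cells.

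The values that chose the cells are given as a description. Of the 1351 Pdcd1+Tcf7+ cells, 806 entered with a single Tcf7 UMI and 545 with more, up to 11. A single Pdcd1 UMI was held by 561 and a single Cd8a UMI by 232 of them. Just outside the rule stood 60 cells that also had Havcr2, 47 of them by 1 UMI, and 4463 cells with Pdcd1 but neither Tcf7 nor Havcr2. The last group was shallower, with a median of 4187 UMIs, and a count of 0 in a cell does not show that it lacked the transcript. Another 41 cells met the gene rule but had 10% or more of their UMIs from mitochondrial genes. Summed over cells, Pdcd1 stood at 396 UMIs per 1000000 UMIs (counts per 1000000, CPM) in Pdcd1+Tcf7+ cells and 479 CPM in Pdcd1+Havcr2+ cells. Tcf7 stood at 258 CPM in Pdcd1+Tcf7+ cells and 257 CPM in Tcf7+Pdcd1- cells.

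The T cell label held. All 1351 cells had a UMI of Cd3e, Cd3d, Cd3g, or Trac, which encode the CD3 chains and the T cell receptor α constant region, and 1266 had Cd8b1, the CD8 β chain. Cd3d stood at 988 CPM (95% interval 967 to 1009), Trac at 604 CPM (95% interval 588 to 621), Trbc2 at 1817 CPM (95% interval 1789 to 1846), and Cd8b1 at 781 CPM (95% interval 763 to 799.8). Slamf6, the progenitor marker that the rule did not use, lies at chromosome 1:171917515-171953170 of GRCm38 and stood at 55.0 CPM (95% interval 50.2 to 60.1) in Pdcd1+Tcf7+ cells. In Pdcd1+Havcr2+ cells it stood at 26.6 CPM (95% interval 21.7 to 32.3) and in Tcf7+Pdcd1- cells at 31.1 CPM (95% interval 28.4 to 34.1). Across the 6 stretches in which the barcodes run through the alphabet, called barcode runs, the lowest, median, and highest level of Slamf6 was 46.4, 52.5, and 75.3 CPM in Pdcd1+Tcf7+ cells, 14.6, 27.9, and 42.8 CPM in Pdcd1+Havcr2+ cells, and 22.1, 32.0, and 45.0 CPM in Tcf7+Pdcd1- cells. The runs of Pdcd1+Tcf7+ cells therefore lay above those of both other populations without overlap. Which sample a run came from is not known.

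Detection per cell was low. A UMI of Slamf6 was found in 23.2% of Pdcd1+Tcf7+ cells, 13.2% of Pdcd1+Havcr2+ cells, and 15.2% of Tcf7+Pdcd1- cells. In 724 macrophages of the same matrix (C1qa, Csf1r, and Lyz2 present, Cd3e, Cd3d, Trac, and Cd8a absent), which should lack most T cell transcripts, it was 18.1%, at a median of 18502 UMIs per cell. After thinning each cell at random to 2000 UMIs the shares were 9.88%, 4.68%, 6.58%, and 2.31%, in the same order, with 5, 3, 18, and 32 shallower cells left out. At this depth the share in each T cell population exceeded that in macrophages. Dapl1 and Ccr7 were found in 6.98% and 9.14% of thinned Pdcd1+Tcf7+ cells and in 0.145% and 0% of thinned macrophages.

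Pdcd1+Tcf7+ cells were present in every barcode run. Their share of the cells with Cd8a was 9.94%, 6.57%, 6.87%, 13.4%, 9.54%, and 10.2% in runs 1 to 6. Run 2 was lowest (exact 95% interval 5.52 to 7.75) and run 4 highest (11.8 to 15.3), and these intervals did not overlap. Runs 4 and 5 also lost 42.4% and 46.5% of their barcodes to the filters on cells, against at most 5.44% elsewhere, and the part of this loss in the shares was not tested. For each Pdcd1+Havcr2+ cell there were between 1.12 (run 2) and 8.56 (run 6) Pdcd1+Tcf7+ cells. Of the barcode sequences in the matrix, 51 occurred more than once, and 8 Pdcd1+Tcf7+ cells carried such a sequence.

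**Figure D1:**
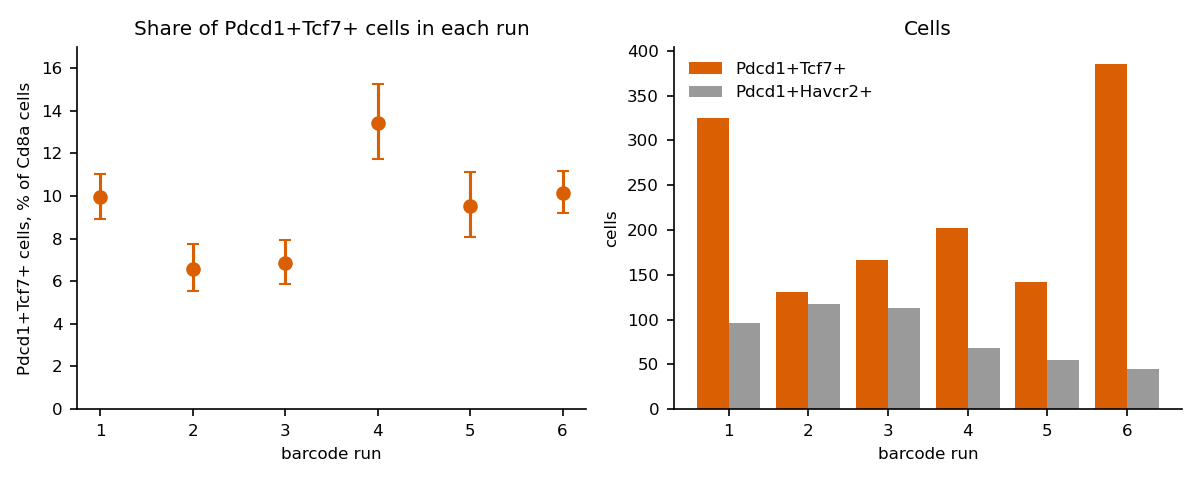
Left, Pdcd1+Tcf7+ cells as a percentage of Cd8a cells in each of 6 barcode runs, with exact 95% binomial intervals. Right, number of Pdcd1+Tcf7+ and Pdcd1+Havcr2+ cells per run. Shares ran from 6.57% to 13.4%, and Pdcd1+Tcf7+ cells were the more numerous in all 6 runs.

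Transcripts of other cells were mostly scarce in Pdcd1+Tcf7+ cells. The 12 macrophage markers summed to 357 CPM, with a range over runs of 145 to 1156 CPM and none at 0, against 89560 CPM in macrophages. Runs 2 and 3 were the high ones, at 1037 and 1156 CPM. In run 3, 94.0% of Pdcd1+Tcf7+ cells held at least 2 UMIs of Lyz2, C1qa, C1qb, C1qc, Apoe, and Csf1r, at a median of 0.0869% of their UMIs, whereas the run 2 value included 1 cell with over 1%. Summed levels of the other lists were 335 CPM for 12 dendritic cell markers (309 of it from Bst2, with Flt3 and Clec9a at 0), 56.9 CPM for 9 B or plasma cell markers (Mzb1 and Pax5 among those at 0), 150.4 CPM for 8 NK cell markers (101 of it from Eomes, which CD8+ T cells share), 2.71 CPM for 6 neutrophil markers (Retnlg and Ly6g at 0), and 18.5 CPM for 8 fibroblast or endothelial markers (Kdr at 0). The 8 tumor or epithelial markers summed to 251 CPM, with run 4 at 1035 CPM. This sum was 83.3 CPM in Pdcd1+Havcr2+ cells, 310 CPM in Tcf7+Pdcd1- cells, and 202 CPM in macrophages, so here macrophages stood no higher.

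The reference Pdcd1+Havcr2+ cells were less clean. Over 1% of the UMIs came from the 6 macrophage genes in 22 of 494 of these cells, 16 of them in run 2, and in 1 of 1351 Pdcd1+Tcf7+ cells. The rule for them also allowed Cd4 and Mki67. A stricter set, with no Cd4 or Mki67 UMI and no cell over 1%, was chosen after its values were known and held 360 cells. Their macrophage markers summed to 408 CPM, against 9458 CPM before, with Csf1r and Mrc1 at 0. These cells are called strict Pdcd1+Havcr2+ cells, and folds over both sets are given.

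**Figure D2:**
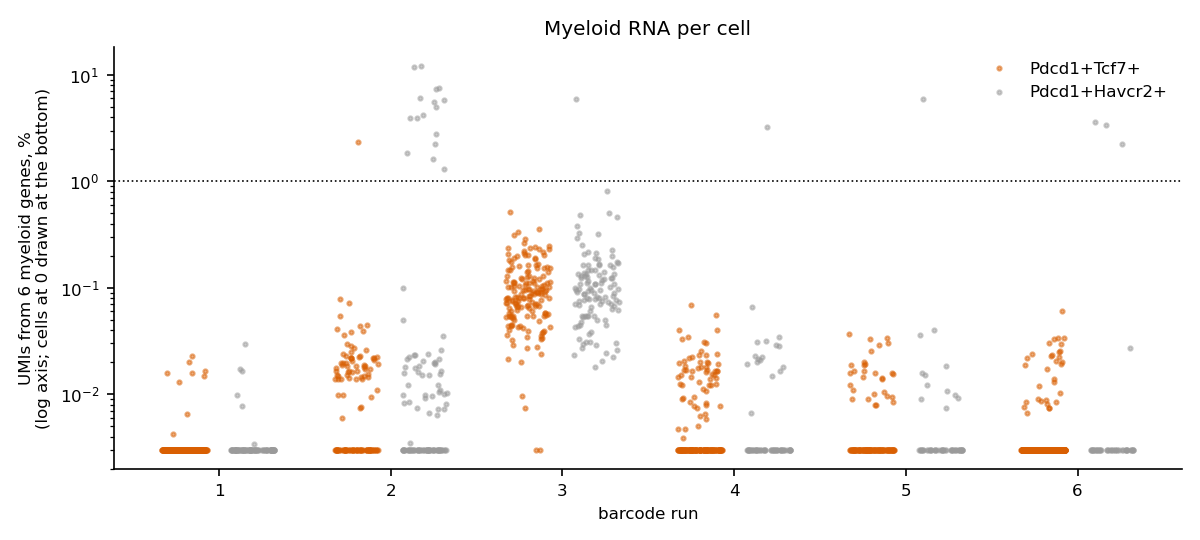
Percentage of the UMIs of each cell that came from Lyz2, C1qa, C1qb, C1qc, Apoe, and Csf1r, on a log axis, for Pdcd1+Tcf7+ and Pdcd1+Havcr2+ cells of each barcode run. Points are cells, cells at 0 are drawn at the bottom, and the dotted line marks 1%. Above it lie 22 Pdcd1+Havcr2+ cells and 1 Pdcd1+Tcf7+ cell, and in run 3 94.0% of Pdcd1+Tcf7+ cells hold at least 2 such UMIs.

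Compared with Pdcd1+Havcr2+ cells, Pdcd1+Tcf7+ cells held at least 2-fold more RNA of 13 of 26 progenitor and memory genes, among them Dapl1, Klf3, Satb1, and Ccr7, and less of Gzma, Gzmb, Ccl3, Ccl4, Lag3, and Cxcr6. Among 6175 genes with a UMI in at least 10% of the cells of either population, the 6 genes of the rule left out, 64 (1.04%) were at least 2-fold higher in Pdcd1+Tcf7+ cells and 260 (4.21%) at least 2-fold lower. Over strict Pdcd1+Havcr2+ cells, 5617 genes were compared, of which 58 (1.03%) were higher and 90 (1.60%) lower. The sets shared 45 of the higher and 53 of the lower genes. All genes compared had a median log2 fold of -0.16 and -0.16, respectively. Both populations were chosen by Tcf7 and Havcr2, so these folds are a description. The 4463 cells with Pdcd1 but neither Tcf7 nor Havcr2 stood near Pdcd1+Havcr2+ cells for several of these genes. Dapl1 stood at 7.53 CPM in them and 6.21 CPM in Pdcd1+Havcr2+ cells, Gzmb at 519 and 525 CPM, and Cxcr6 at 410 and 481 CPM. For these genes the gap to Pdcd1+Tcf7+ cells was thus not particular to cells with Havcr2. Ccl3 (40.9 and 141 CPM) and Ccl4 (173 and 498 CPM) were further apart. Folds pool the runs, and run 6 held 385 Pdcd1+Tcf7+ and 45 Pdcd1+Havcr2+ cells, while run 2 held 131 and 117. The part of this mix in the folds was not tested. Against Pdcd1+Havcr2+ cells, the higher genes included 57 that were higher in 6 of 6 runs, and the lower genes 183 that were lower in 6 of 6. Against the strict set these counts were 48 and 60. The genes were called from UMIs of the same runs, so the counts are a description. The lowest folds over the first set belonged to macrophage genes (Cd74, Apoe, C1qa, C1qb, Lyz2, Tyrobp, Ctsz, and Spp1), the chemokine Ccl3, and genes of cell division (Birc5, Cdca3, Ube2c, Hist1h1b, Tpx2, and Kif15). Cd74, the invariant chain of MHC class II, stood at 10.7 CPM in Pdcd1+Tcf7+ cells, 1725 CPM in Pdcd1+Havcr2+ cells, and 66.4 CPM in the strict set, and Birc5, which encodes survivin, at 6.33, 103, and 7.93 CPM. These gaps moved with the macrophage RNA and the cycling cells of the first set, and against the strict set Ctsz was not lower (log2 fold 0.44).

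Many genes of the progenitor and memory list were higher than in both sets. Of 26 compared members without the rule genes, 13 were at least 2-fold higher and 1 lower than in Pdcd1+Havcr2+ cells, with a median log2 fold of 0.92, and 13 and 1 against the strict set, with a median of 0.90. Dapl1, a gene of naive and progenitor T cells, had the highest fold over the first set, at 52.2 CPM (95% interval 47.6 to 57.2) against 6.21 CPM (95% interval 3.98 to 9.23), or 8.10-fold (95% interval 5.59 to 13.3). Its runs were 19.6, 59.9, and 73.4 CPM against 0, 3.68, and 17.8 CPM and did not overlap, with run 1 the lowest of Pdcd1+Tcf7+ cells and the highest of Pdcd1+Havcr2+ cells. Klf3 and Klf2, transcription factors of quiescence and recirculation, were 4.20-fold and 2.81-fold higher (114 against 26.9 CPM, and 294 against 104 CPM). S1pr1, the receptor for exit from tissue that KLF2 induces, was 3.18-fold higher, and Il7r, the receptor for the survival cytokine IL-7, was 3.11-fold (95% interval 2.64 to 3.74) higher. For Il7r the runs were 63.0, 117, and 153 CPM against 34.2, 38.2, and 49.7 CPM, again without overlap. Satb1, a chromatin organizer of T cells, stood at 117 against 28.2 CPM. Ccr7, the lymph node homing receptor, stood at 82.8 against 21.5 CPM and was higher in 5 of 6 runs (6 of 6 over the strict set). Over the strict set Ccr7 had the highest fold, 9.86, against 3.82 over the first, while Dapl1 was 7.04-fold higher, Klf3 6.05-fold, Satb1 3.24-fold, and Il7r 3.54-fold. The 60 cells outside the rule that had Havcr2 beside Tcf7 also held more of several of these genes than Pdcd1+Havcr2+ cells. In them Dapl1 stood at 73.4 CPM (95% interval 52.4 to 99.9) and Il7r at 132 CPM (95% interval 103 to 166). Ccr7 stood at 139 CPM (95% interval 110 to 174), and only its interval lay clear of that in Pdcd1+Tcf7+ cells. Klf3 and Klf2 stood at 75.2 and 216 CPM, below Pdcd1+Tcf7+ cells but above Pdcd1+Havcr2+ cells. The 60 cells held more effector RNA as well, with Gzmb at 270 CPM and Gzma at 229 CPM, against 145 and 132 CPM in Pdcd1+Tcf7+ cells. Ccl4 went the other way, at 84.4 against 94.6 CPM.

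Further members were Id3 (2.79-fold), an inhibitor of E proteins that marks progenitor cells, Bach2 (2.75-fold), a repressor of effector genes, Xcl1 (2.45-fold), a chemokine for cross-presenting DCs, and Bcl6 (2.16-fold, 1.56-fold over the strict set). Slamf6 was 2.05-fold (95% interval 1.67 to 2.58) and 2.28-fold (95% interval 1.72 to 3.19) higher than in the first and the strict set. Tox2, a relative of Tox, was the member that was lower, at 8.14 CPM against 26.6 and 29.7 CPM. Lef1, the partner of TCF1, stood at 25.2 against 15.5 CPM and missed the 2-fold mark, at 1.61-fold (95% interval 1.22 to 2.20). Among members between these marks, Cd28 stood at 426 against 301 CPM and Foxo1 at 148 against 152 CPM.

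Other genes stood among the highest folds. Emb, the adhesion protein embigin, was the most abundant, at 1282 CPM (95% interval 1258 to 1306) against 305 CPM (95% interval 287 to 323), and its runs (963, 1229, and 1640.5 CPM) lay above those of Pdcd1+Havcr2+ cells (173, 278, and 584 CPM). Il18r1, a chain of the IL-18 receptor, was 4.03-fold higher and its partner chain Il18rap 2.07-fold. Tdrp, Lrig1, and Nsg2 were 7.06-fold, 5.22-fold, and 4.64-fold higher at low levels of 25.4, 22.8, and 21.5 CPM. Axin2, a target and brake of the WNT and β-catenin pathway in which TCF1 acts, was 3.67-fold higher, and higher in 6 of 6 runs. Tnfsf8 (CD30 ligand), Klrk1 (NKG2D), and Pde2a, a cyclic nucleotide phosphodiesterase, were 3.66-fold, 3.58-fold, and 3.46-fold higher. The milk and epithelial transcripts Lcn2 and Csn3 also ranked here, but stood at 486 and 494 CPM in run 4 and at most 55.6 and 54.5 CPM in any other run, and without run 4 they were not higher (log2 fold -0.042 and -0.18). Against the strict set, Plac8 (4.06-fold), Ifitm3 (3.94-fold), and Myb (3.38-fold), the last a transcription factor of progenitor cells, joined the 15 highest. Ifitm3 stood at 68.4 CPM in Pdcd1+Tcf7+ cells, 80.4 CPM in the first set, and 726 CPM in macrophages.

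In the list of terminal exhaustion and effector regulators, most members were within 2-fold. Of 30 compared members, 7 were at least 2-fold lower than in Pdcd1+Havcr2+ cells and 0 higher (median log2 fold -0.43), and 8 were lower than in the strict set (median -0.59). Cxcr6, a chemokine receptor of tissue residence, stood at 175 CPM (95% interval 167 to 184) against 481 CPM (95% interval 459.6 to 504), and the runs (134, 177, and 242 CPM against 410.0, 439, and 549.9 CPM) did not overlap. Tox, the transcription factor that establishes exhaustion, stood at 149 CPM (95% interval 141 to 158) against 293 CPM (95% interval 276 to 311), a fold of 0.510 that became 0.434 over the strict set. Rgs16, a regulator of G protein signaling, Prdm1 (BLIMP-1), Entpd1 (CD39), and Cd38 were 2.75-fold, 3.45-fold, 3.52-fold, and 2.98-fold lower, each in 6 of 6 runs.

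Of 10 compared inhibitory receptors, 1 was lower, Lag3, at 32.3 CPM (95% interval 28.7 to 36.3) against 100.3 CPM (95% interval 90.6 to 111), and the others were within 2-fold (median log2 fold -0.13, and -0.29 over the strict set). Ctla4 stood at 118 against 204 CPM, Cd160 at 54.0 against 36.7 CPM, and Klrc1 (NKG2A) at 179 against 95.9 CPM. Tigit was at 4.75 CPM and was detected in too few cells to be compared.

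Among 20 compared cytotoxic and secreted genes, 6 were at least 2-fold lower and 2 higher (Klrk1 and Xcl1), with a median log2 fold of -0.39. Gzmb stood at 145 CPM (95% interval 137 to 153) against 525 CPM (95% interval 503 to 549), with runs of 99.2, 132, and 203 CPM against 256, 549, and 807 CPM, which did not overlap. Gzma, another granzyme, stood at 132 against 1153 CPM, but varied between runs of Pdcd1+Havcr2+ cells from 34.6 to 2919.9 CPM. The chemokines Ccl3 and Ccl4 stood at 10.4 against 141 CPM and at 94.6 against 498 CPM, and macrophages held 180.3 and 469 CPM of them. Against the strict set they remained 16.3-fold and 5.52-fold lower. Lamp1 and Spp1 were at least 2-fold lower against the first set only, at 87.3 and 25.3 CPM against 238 and 304 CPM. In the strict set they stood at 85.7 and 45.6 CPM, and there Ccl5 and Prf1 (perforin) passed 2-fold instead (2.40-fold and 2.14-fold lower). Ifng (165 against 170.1 CPM) and Tnf (72.7 against 77.6 CPM) were within 2-fold. Maf and Cd200r1, outside the lists, were 5.99-fold and 6.35-fold lower than in the strict set.

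In the remaining lists, cell cycle genes had the largest shift against the first set and most others few members past 2-fold. The rule barred Mki67 from Pdcd1+Tcf7+ cells but not from the first set, so this shift was set in part by the choice of cells. Costimulatory receptors held 1 of 11 members past 2-fold, Tnfrsf9 (CD137), at 72.3 against 163 CPM. Cytokine receptors had 3 of 15 higher (Il7r, Il18r1, and Il18rap) and 2 lower (Il10ra and Tgfbr1, of which Tgfbr1 was not lower against the strict set, at 13.1 against 9.91 CPM). In the trafficking list 3 of 18 were higher (Ccr7, Klf2, and S1pr1) and 1 lower (Cxcr6). Of 25 genes of T cell receptor signal and early response, 1 was higher, Fosl2, with a median log2 fold of 0.24. Of 28 interferon-induced genes, 1 was higher, Ly6c2, at 550.0 against 178 CPM, and the list had a median of 0.11, or -0.16 over the strict set. Cell cycle genes were lower in 20 of 22 cases than in the first set (median -1.98) and in 0 of 13 cases than in the strict set (median -0.34), where Mki67 was absent from both populations by rule. No gene of the glycolysis (median -0.30), respiratory chain (-0.37), heat shock (0.12), or T cell identity (-0.27) lists reached 2-fold in either set.

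**Figure D3:**
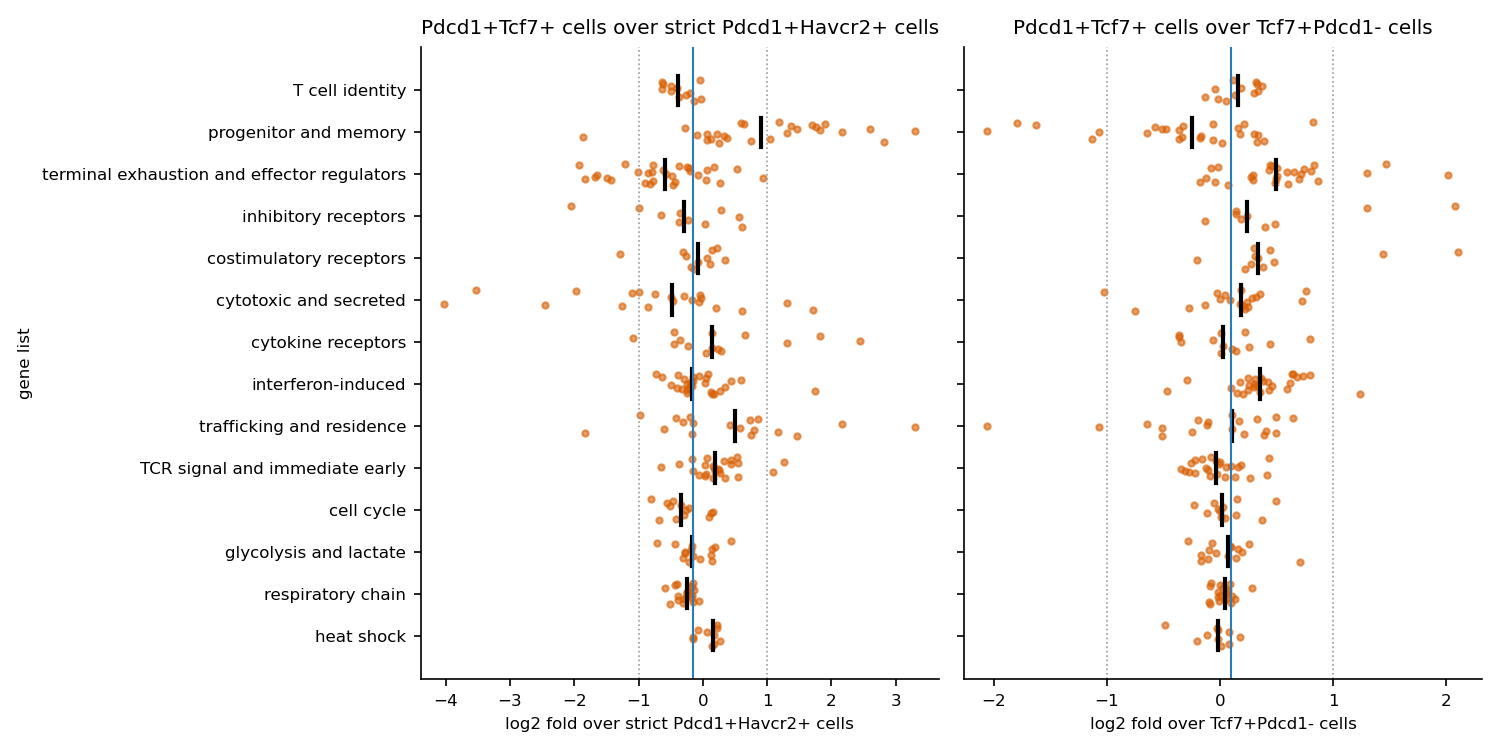
Log2 fold of Pdcd1+Tcf7+ cells over strict Pdcd1+Havcr2+ cells (left) and over Tcf7+Pdcd1- cells (right) for each compared gene of 14 lists. Points are genes, black bars list medians, the blue line the median of all genes compared, and dotted lines mark 2-fold. The progenitor and memory list had a median of 0.90 on the left and -0.25 on the right, and the terminal exhaustion list -0.59 and 0.50.

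Compared with Tcf7+Pdcd1- cells, Pdcd1+Tcf7+ cells held at least 2-fold more RNA of Tnfrsf4, Lag3, Rgs16, and Tox and less of Lef1, Satb1, and Ccr7. Of 5444 genes compared, 33 (0.606%) were at least 2-fold higher and 11 (0.202%) lower, with a median log2 fold of 0.099. The highest were Tnfrsf4 (OX40), at 52.6 CPM (95% interval 47.9 to 57.6) against 12.2 CPM (95% interval 10.5 to 14.1), and Lag3, at 32.3 against 7.65 CPM (95% interval 6.31 to 9.18). Lag3 runs were 24.0, 26.7, and 71.0 CPM against 4.42, 8.20, and 19.4 CPM and did not overlap. Rgs16 was 4.04-fold, Chst12 3.00-fold, Nrp1 (neuropilin-1) 2.99-fold, and Sema6d 2.95-fold higher, each in 6 of 6 runs. Tox stood at 149 against 53.9 CPM (95% interval 50.3 to 57.8), with runs of 123, 154, and 222 CPM against 44.8, 56.6, and 86.5 CPM that did not overlap, and Ikzf2 (Helios) at 189 against 76.5 CPM. Of the terminal exhaustion list, 3 of 28 members were at least 2-fold higher (Rgs16, Tox, and Ikzf2), with a median of 0.50. In it 23 members were above equality, as were most of all genes compared, whose median was 0.099. Among 9 inhibitory receptors, Lag3 and Ctla4 were higher (4.21-fold and 2.46-fold), and among 11 costimulatory receptors, Tnfrsf4 and Tnfrsf9 (4.31-fold and 2.71-fold). Of 24 genes of T cell receptor signal and early response, 0 were at least 2-fold higher and 0 lower, with a median of -0.036.

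Receptor γ chain transcripts were also higher than in Tcf7+Pdcd1- cells. Tcrg-C4, Tcrg-C2, and Trgv2, constant and variable segments of the T cell receptor γ locus, stood at 58.1, 127, and 21.8 CPM against 15.8, 39.2, and 6.38 CPM, in 6 of 6 runs each. Their sequences resemble each other, so reads may be split between them. Trdc, the δ constant gene that defines γδ T cells, stood at 4.18 CPM in Pdcd1+Tcf7+ cells and 7.91 CPM in Tcf7+Pdcd1- cells, and Trac was at 604 and 532 CPM. The 8 markers of γδ T cells summed to 206 and 75.7 CPM. This sum was higher still in Pdcd1+Havcr2+ cells, at 328 CPM, and in the strict set, at 363 CPM. The 7 markers of CD4+ or regulatory T cells other than Cd4 summed to 377 CPM in Pdcd1+Tcf7+ and 148 CPM in Tcf7+Pdcd1- cells. Nearly all of it came from Ikzf2, Ctla4, and Tnfrsf4. Foxp3, the defining factor of regulatory T cells, stood at 2.04 CPM in Pdcd1+Tcf7+ cells and 0.133 CPM in Tcf7+Pdcd1- cells.

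Several genes that were lower than in Tcf7+Pdcd1- cells mark naive and central memory cells. Lef1 stood at 25.2 CPM (95% interval 22.0 to 28.8) against 88.0 CPM (95% interval 83.3 to 92.9) and Satb1 at 117 CPM (95% interval 109.9 to 124) against 362 CPM (95% interval 352 to 371). The runs of Lef1 (18.5, 25.8, and 51.2 CPM against 51.8, 81.2, and 161 CPM) and of Satb1 (74.3, 86.2, and 185 CPM against 201, 347, and 505 CPM) did not overlap. Yes1, a kinase of the SRC family, was 4.50-fold lower, Ccr7 2.10-fold, the kinase gene Txk 2.20-fold, Cmah 2.42-fold, Fam241a 2.24-fold, Pde2a 2.16-fold, and Rflnb 2.13-fold, each in 6 of 6 runs. Of the progenitor and memory list, 5 of 26 compared members were at least 2-fold lower and 0 higher, with a median of -0.25. Gzmm was the member of the cytotoxic list past 2-fold, at 17.6 against 36.1 CPM, while Gzmb (145 against 127 CPM) and Ccl5 (5828 against 5051 CPM) were close. Of 27 interferon-induced genes, 25 stood above equality, as did most of all genes compared (median 0.35, against 0.099 for all genes). Cxcl10, a chemokine for activated T cells, was 2.35-fold higher, with run 3 at 514 CPM and the other runs at no more than 168 CPM.

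Set side by side, the levels of many genes in Pdcd1+Tcf7+ cells lay between those of the other populations. Of 5374 genes compared in both comparisons, 12.5% declined in the order Tcf7+Pdcd1-, Pdcd1+Tcf7+, strict Pdcd1+Havcr2+ cells, and 53.8% stood in the opposite order. In the progenitor and memory list 15 of 25 members declined in that order and 1 stood in the opposite order, and in the terminal exhaustion list 3 of 28 declined and 20 stood in the opposite order. Klf3, for example, stood at 159, 114, and 18.3 CPM in this order, Ccr7 at 174, 82.8, and 7.93 CPM, Tox at 53.9, 149, and 345 CPM, and Lag3 at 7.65, 32.3, and 134 CPM. The comparisons share the Pdcd1+Tcf7+ cells, and both reference populations were chosen by Tcf7 or Pdcd1, so the orders are a description.

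**Figure D4:**
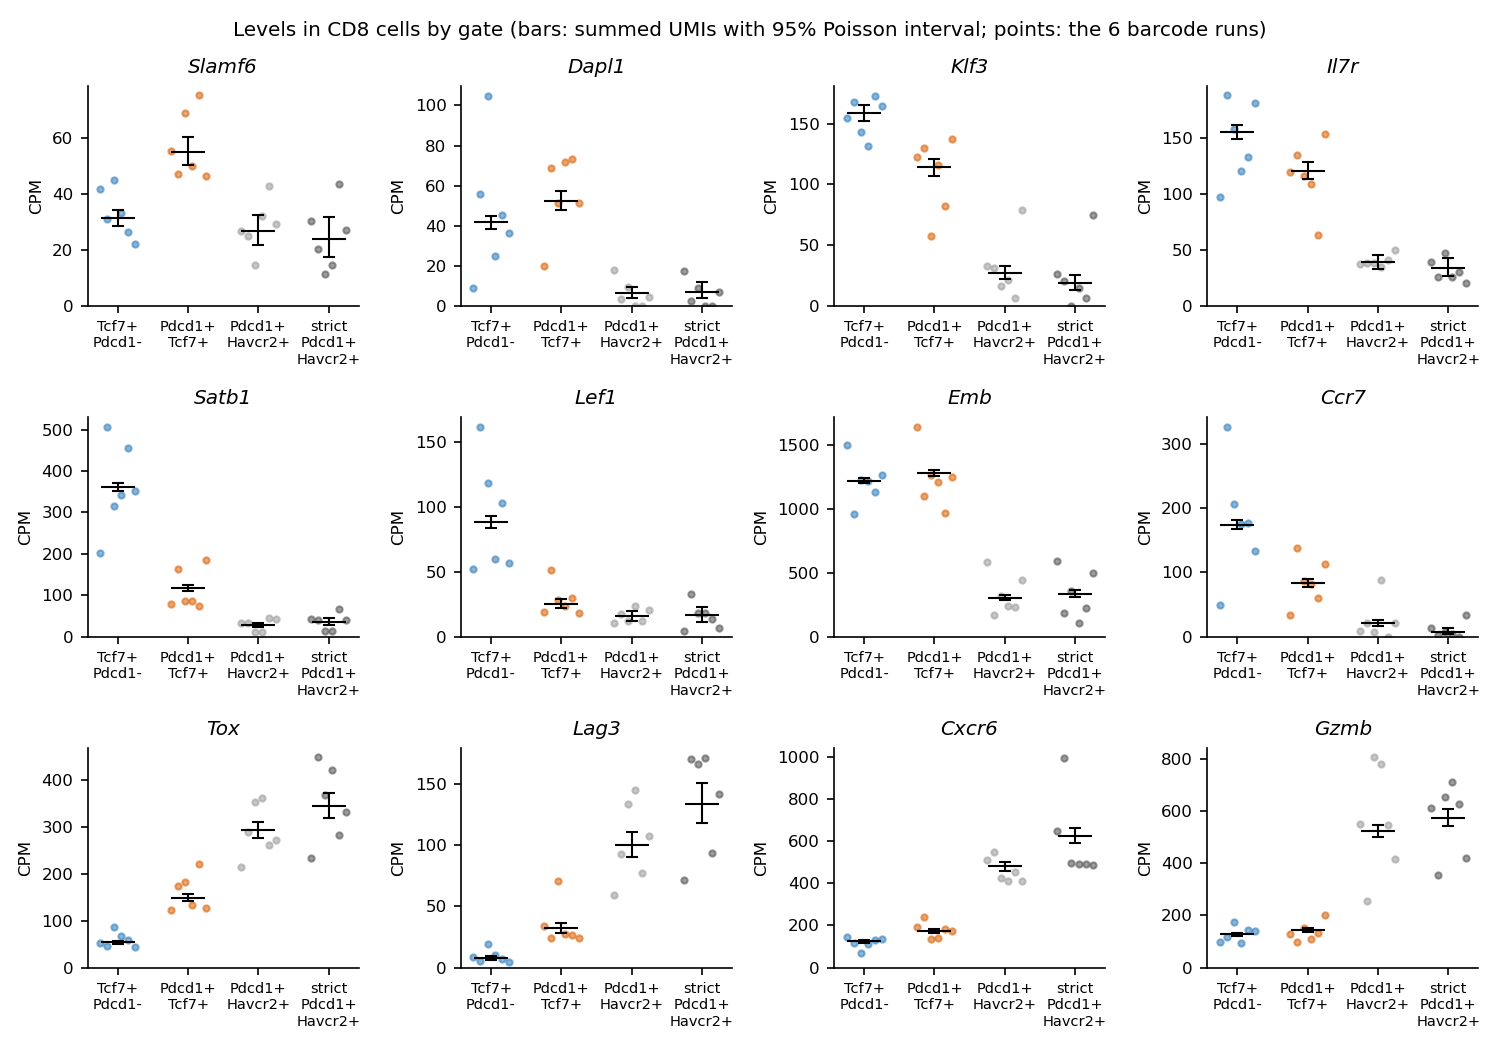
CPM (linear axes from 0) of 12 genes in Tcf7+Pdcd1-, Pdcd1+Tcf7+, Pdcd1+Havcr2+, and strict Pdcd1+Havcr2+ cells. Black bars are summed UMIs with exact 95% Poisson intervals, and points are the 6 barcode runs. Slamf6 was highest in Pdcd1+Tcf7+ cells (55.0 CPM), Satb1 ran from 362 to 117 to 28.2 CPM, and Tox from 53.9 to 149 to 293 CPM, in the first 3 populations.

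Pdcd1+Tcf7+ cells held the highest of the 3 levels for 1057 of 5374 genes and for 8 of 25 genes of the progenitor and memory list. By a limit set after the values had been seen, 10 of 5374 genes were at least 1.5-fold above both strict Pdcd1+Havcr2+ and Tcf7+Pdcd1- cells, among them Tnfsf11, Csn3, Slamf6, Cmpk2, Foxp4, Cd9, Tnfsf8, Wfdc18, and Rnf157. Tnfsf11 (RANK ligand) stood at 40.3 CPM against 14.9 and 19.5 CPM and was higher in 6 of 6 runs in both comparisons. Slamf6 was 2.28-fold and 1.77-fold above them, and the tetraspanin Cd9 2.20-fold and 1.68-fold. The milk genes Csn3 and Wfdc18 were higher in 3 and 4 of 6 runs over Tcf7+Pdcd1- cells.

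Of the genes that the study named for its CD8+ T cells, several have been given above. Cd28 stood at 426 CPM (95% interval 412 to 439.8) in Pdcd1+Tcf7+, 301 CPM (95% interval 284 to 319) in Pdcd1+Havcr2+, and 347 CPM (95% interval 337 to 356) in Tcf7+Pdcd1- cells. Ccl5, the most abundant gene of the cytotoxic list in these populations, stood at 5828, 9354, and 5051 CPM, and macrophages held 60.8 CPM. The interferon receptor chains Ifnar1 (129, 109, and 108 CPM) and Ifnar2 (42.3, 50.7, and 39.4 CPM) were within 2-fold in both comparisons, as were Tbx21 (T-bet, 69.3, 58.7, and 50.3 CPM) and the adhesion receptor Cd44 (148, 189, and 127 CPM). These ranges give no ground to call the levels equal.

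Within the Pdcd1+Tcf7+ cells, those with at least 2 Tcf7 UMIs were compared with those with a single one. They were deeper, with median UMIs of 6793 against 5023. Slamf6 stood at 65.8 against 44.6 CPM, Dapl1 at 68.8 against 36.4 CPM, Ccr7 at 120.0 against 47.0 CPM, and Il7r at 135 against 107 CPM. Gzmb stood at 126 against 163 CPM and Lag3 at 27.0 against 37.5 CPM, while Tox was at 147 and 152 CPM. The split used Tcf7, a gene of the rule, so these differences are a description. The parts of depth and of the mix of runs in them were not tested.

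Shares of cells with a UMI ran the same way at equal depth. After thinning to 2000 UMIs, Klf3 was found in 18.5% of Pdcd1+Tcf7+ and 3.46% of Pdcd1+Havcr2+ cells (39.8% and 10.7% unthinned), Emb in 82.4% and 29.9% (92.9% and 53.8%), and Il18r1 in 11.7% and 2.44% (27.7% and 8.10%). Lag3 was found in 6.17% and 20.2% (15.9% and 45.3%), and Gzmb in 14.0% and 39.7% (23.3% and 54.7%). The thinned shares in macrophages were 10.3% for Klf3, 10.7% for Emb, 0.145% for Il18r1, 0.723% for Lag3, and 0.145% for Gzmb. Macrophages held Klf3 at 54.8 CPM and Emb at 59.8 CPM, so for these genes their shares are no measure of background.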

How the data were processed

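The labels describe CD4/CD8 bead-selected cells of digested tumors sequenced on the 10x platform. The deposited matrix pools the 6 samples and gives raw UMI counts, not normalized by the authors. The submitters' processing notes name Cell Ranger 3.0.2 and mm10. The matrix held 23101 barcodes and 31053 genes. Cells with at least 200 detected genes and under 10% mitochondrial UMIs were kept, which left out 3573 barcodes. Kept UMIs per barcode run ranged from 13272316 to 29805886. Gates were set on raw UMIs. A level is the sum of a gene's UMIs per 1000000 UMIs of the cells (CPM), with an exact 95% Poisson interval. Shares have Clopper-Pearson intervals. Folds had 1 UMI added to each sum, and their intervals are exact conditional intervals. Genes with a UMI in at least 10% of cells of either population were compared, and 2-fold was the limit. The fold calculation was tested on simulated data. Doublets were not called, and deep cells and cells with macrophage RNA were left out as alternatives. Named genes were the 15 highest and 15 lowest folds over Pdcd1+Havcr2+ cells, the 10 and 10 over Tcf7+Pdcd1- cells, members of the gene lists, and genes the study named. The same ranks over the strict set were added after its values were seen. Members and lists were chosen with earlier results of these data known. Positions come from GENCODE M21. Some genes are not reported here. Python 3.11.15, numpy 2.4.6, and scipy 1.17.1 were used.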

Additional observations from a re-analysis of the deposited data

Results flagged for a closer look

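In Pdcd1+Tcf7+ cells, the gap between 1 barcode run and its nearest neighbor was large against the range of all 6 runs for 4 of 24 quantities, and chance alone marks about 1 in 20. Summed levels of the terminal exhaustion and effector list were 5333, 4767, 4660.0, 4612, 4628, and 4560.0 CPM in runs 1 to 6, with run 1 highest. Costimulatory receptors summed to 2041, 1613, 1720.4, 1679, 1763, and 1717 CPM, again with run 1 highest. Tumor or epithelial markers summed to 41.2, 176, 94.0, 1035, 70.6, and 74.7 CPM, with run 4 highest. Fibroblast or endothelial markers summed to 9.04, 22.9, 21.9, 19.5, 22.6, and 21.0 CPM, with run 1 lowest. The share of Pdcd1+Tcf7+ cells among Cd8a cells was not set apart in any run by this measure.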

How the results depend on the processing

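Counts of cells and genes depended on the settings, and directions of most named genes did not. The 1351 Pdcd1+Tcf7+ cells became 332 when cells were thinned to 2000 UMIs first and 545 when 2 Tcf7 UMIs were asked for. The size of this population therefore depended on the depth of the cells and on the Tcf7 limit. Genes at least 2-fold higher and lower than in Pdcd1+Havcr2+ cells (64 and 260) became 105 and 546 with detection in 5% of cells, 35 and 94 with 20%, and 200 and 802 at 1.5-fold. The lower genes numbered 159 after thinning, 153 without the deepest 5% of cells and those with 2 macrophage UMIs, 111 with Cd4 and Mki67 barred from the reference cells, 90 with cells over 1% macrophage UMIs also left out, and 117 without run 3 as well (the last pair of settings chosen after seeing the data). Against Tcf7+Pdcd1- cells the counts (33 and 11) became 11 and 4 after thinning, 58 and 21 at 5%, 18 and 6 at 20%, 150 and 37 at 1.5-fold, and 7 lower with 2 Tcf7 UMIs. Leaving out each run gave 966 to 1220 cells, 52 to 77 higher and 179 to 315 lower genes against Pdcd1+Havcr2+ cells, and 27 to 47 higher and 7 to 16 lower against Tcf7+Pdcd1- cells, the lowest of the last without run 2. The cause of these changes was not tested.

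Of 44 named genes past 2-fold against Pdcd1+Havcr2+ cells, the alternatives kept the direction in 735 of 748 values, and 13 reversed. These genes were chosen by large folds in mostly the same cells, which favors a kept direction. Among named genes within 2-fold, Ifnar2 kept its direction in 9 of 17 alternatives, Tnf in 10, and the others in at least 16. Lcn2 and Csn3 turned to log2 folds of -0.32 and -0.17 with at least 500 genes and under 5% mitochondrial UMIs, -0.73 and -0.57 after thinning, -0.44 and -0.39 without deep cells and cells with macrophage UMIs, and -0.042 and -0.18 without run 4 (highest values with other runs left out 2.38 and 2.32), and Lcn2 to -0.048 as a mean over cells. Ctsz turned to 0.25 without deep cells and cells with macrophage UMIs, and to 0.44 with the strict reference cells and 0.41 without run 3 as well, where Lyz2 turned to 0.18. Slamf6 ranged from 0.84 to 2.27, Dapl1 from 1.79 to 3.93, Il7r from 1.42 to 2.00, Gzmb from -2.12 to -1.66, and Cxcr6 from -1.87 to -1.40 over 17 alternatives. No paired analysis was possible because the barcodes carry no replicate number of the samples, and populations were set side by side within barcode runs only as values and counts of runs.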

Other observations

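Some transcripts in Pdcd1+Tcf7+ cells varied between barcode runs. The interferon-induced gene Ifi208 stood at 4.02, 4.36, 10.4, 28.4, 24.5, and 31.4 CPM in runs 1 to 6, and Mid1, a microtubule-binding ubiquitin ligase, at 4.52, 5.45, 5.22, 40.3, 25.4, and 24.9 CPM. In Tcf7+Pdcd1- cells the same runs held 7.13, 8.76, 6.23, 35.7, 18.1, and 32.8 CPM of Ifi208 and 3.00, 7.51, 2.77, 51.2, 18.1, and 25.7 CPM of Mid1. Both genes were thus lower in runs 1 to 3 than in runs 4 to 6 in both populations. The study reported that PAR2 G37I tumors had more T cells with these transcripts, and more of them per cell. Which genotype a run came from is not known, so a tie to genotype was not tested. The segment Trav4-4-dv10 of the T cell receptor α locus stood at 123, 0, 196, 0, 0, and 23.6 CPM in Pdcd1+Tcf7+ cells and 132, 0, 200.4, 0, 0, and 33.1 CPM in Pdcd1+Havcr2+ cells.

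Interferon-induced genes summed to 5523, 4301, 7755, 4467, 3608, and 4907 CPM in Pdcd1+Tcf7+ cells of runs 1 to 6, with run 3 highest, and Cxcl10 to 141, 143, 514, 107, 70.6, and 168 CPM. Run 3 also held the most macrophage RNA in these cells, and its part in the interferon values was not tested. Heat shock genes summed to 9071, 6779.7, 6883, 8467, 7044, and 8729 CPM and immediate early genes to 10738, 11718, 10143, 11288, 8747, and 10440.5 CPM.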
